A study of Homo sapiens with 12 samples.

Results

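The subunits of the 5 respiratory chain complexes were followed across quizartinib and vehicle treatment of MOLM-13 cells in regular medium and in stromal conditioned medium. Members were taken by gene name, with patterns for the NDUF, SDH, UQCR, CYC1, COX and ATP5 subunit families and for the mitochondrially encoded MT-ND, MT-CO, MT-CYB and MT-ATP genes. The patterns matched 141 of the 57353 gene names in the count table. These were the 13 mitochondrially encoded mRNAs, 83 nuclear protein-coding genes and 45 processed pseudogenes that carry an ATP5 name. Of the pseudogenes, 23 had a count in any library and none passed the filter on low counts, so the nuclear values below come from protein-coding genes. All 13 mitochondrial mRNAs and 77 of the 83 nuclear genes passed the filter, which kept 12998 genes with a mean count and a mean level in CPM (counts scaled to a common library total) of at least 1. The levels and sums in CPM given below are also scaled by the trimmed mean of M-values (TMM) factor of each library, 0.956 to 1.04. The 6 nuclear genes below it were ATP5MGL, COX6A2, COX6B2, COX7A1, COX7B2 and COX8C. The name patterns do not take COX4I1, the common form of a complex IV subunit, nor COX7A2L, NDUFA4L2 and ATP5IF1, and these are described separately.

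MOLM-13 is an established human acute myeloid leukemia line that carries an internal tandem duplication of the receptor tyrosine kinase FLT3, and the labels give its genotype as WT for every sample. The 12 libraries formed 4 groups of 3: vehicle (DMSO) in RPMI, AC220 (quizartinib, a FLT3 inhibitor, 3 nM) in RPMI, vehicle in hBMSC-CM, and quizartinib in hBMSC-CM, with 15 hr of treatment. hBMSC-CM is medium conditioned by the human bone marrow stromal line HS-5, filtered and mixed in equal parts with fresh RPMI, so the leukemia cells met no living stromal cells. All groups are therefore 1 cell line at 1 time and 1 dose. The study's reporting checklist calls all its replicates biological, but no source used here says whether the 3 came from separate cultures. The p-values therefore measure the spread between these libraries of 1 cell line.

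The electron transport chain passes electrons from NADH (complex I) and succinate (complex II) through ubiquinone, complex III and cytochrome c to complex IV, which reduces oxygen. Complexes I, III and IV pump protons across the inner mitochondrial membrane, and complex V, the ATP synthase, uses the gradient to make ATP. Complex II is built from nuclear genes alone, while the other complexes join subunits encoded in the nucleus with hydrophobic core subunits encoded in mitochondrial DNA, so the chain depends on transcripts from both genomes.

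Library totals lay between 19966546 and 31546104 counts. By these totals alone, 3 counts, the limit for a gene seen 0 times, correspond to 0.0951 to 0.15 CPM (counting error only). The 9 myeloid markers checked, among them PTPRC, CD33, SPI1 and FLT3, were all above the filter, with summed levels of 1080 to 2200 CPM per library. Of 9 stromal cell markers, 5 (COL3A1, LUM, DCN, POSTN and THY1) had no count in any library, and the summed level of the 9 was 1.16 to 1.66 CPM in vehicle in RPMI, 5.48 to 6.13 in quizartinib in RPMI, 0.997 to 1.68 in vehicle in hBMSC-CM and 2.06 to 2.27 in quizartinib in hBMSC-CM. The one stromal marker above the filter, COL1A1, was highest with quizartinib in RPMI, where no HS-5 medium was present. Its part in the results below was not tested. Replicate 1 of each hBMSC-CM group stood apart from its group in mitochondrial RNA: the MT- genes took 0.683% of its counts against 0.947% and 0.939% with quizartinib, and 0.613% against 0.462% and 0.458% with vehicle. These 2 libraries were also the deepest of their groups, with 28039168 and 31546104 counts. The main mitochondrial mRNA results in hBMSC-CM are given with and without them.

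The 2 genomes moved in opposite directions under quizartinib. The summed level of the 13 mitochondrial mRNAs was 6857, 7116 and 7876 CPM with vehicle in RPMI and 10078, 9489 and 9473 CPM with quizartinib in RPMI. Over the same libraries the summed level of the nuclear subunit genes was 8837, 8697 and 8536 CPM with vehicle and 7171, 7180 and 7461 CPM with quizartinib. Mitochondrial sums were thus higher, and nuclear sums lower, in every treated library than in every vehicle library. In hBMSC-CM the mitochondrial sums were 6164, 4655 and 4714 CPM with vehicle and 6636, 8740 and 8748 CPM with quizartinib. The nuclear sums there were 8688, 8960 and 9296 CPM with vehicle and 8342, 7863 and 7862 CPM with quizartinib. The groups again did not overlap, and the first replicates of the hBMSC-CM groups were 472 CPM apart in the mitochondrial sum. The TMM factors of these first replicates were 1.02 with quizartinib and 0.965 with vehicle. The gap between their nuclear sums, 8342 and 8688 CPM, therefore depends on this scaling.

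The ratio of the mitochondrial to the nuclear sum, which needs no scaling between libraries, was 0.776, 0.818 and 0.923 with vehicle in RPMI, 1.41, 1.32 and 1.27 with quizartinib in RPMI, 0.709, 0.52 and 0.507 with vehicle in hBMSC-CM, and 0.796, 1.11 and 1.11 with quizartinib in hBMSC-CM. The mean log2 ratio was higher with quizartinib by 0.67 in RPMI (pooled SD 0.105, n = 3 per group) and by 0.80 in hBMSC-CM (pooled SD 0.275, n = 3 per group). Between media (hBMSC-CM minus RPMI) the mean log2 ratio differed by -0.42 with quizartinib and by -0.55 with vehicle. Without replicate 1 of both hBMSC-CM groups, the difference made by quizartinib in hBMSC-CM was 1.12, and those between media were -0.26 with quizartinib and -0.70 with vehicle. The 3 complex IV mRNAs MT-CO1, MT-CO2 and MT-CO3 made up 88.3% to 90.7% of the mitochondrial mRNA counts in every library, so the sum mostly reads these genes.

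**Figure D1:**
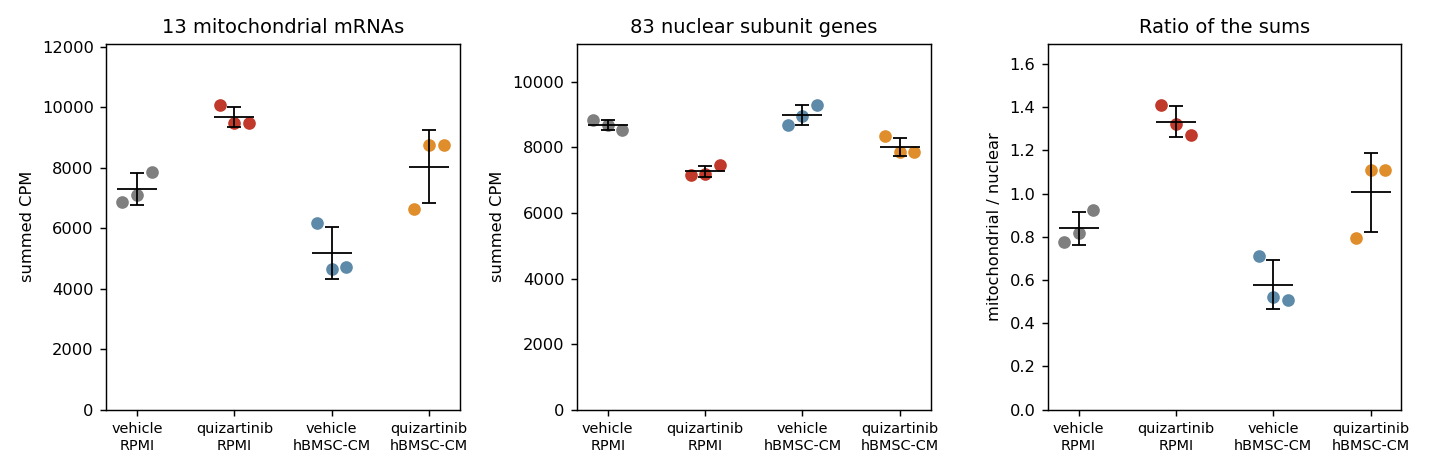
Summed CPM of the 13 mitochondrial mRNAs (left) and of the 83 nuclear subunit genes (middle), and their ratio (right), for each library (points) with group mean and SD (bars, n = 3). Quizartinib groups sit above their vehicle groups on the left and right and below them in the middle.

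All values are relative to the other RNA of a library. The libraries were made from poly-A-selected RNA, and the part of this selection in the mitochondrial levels was not tested. In these bulk samples, a change in the RNA of each cell and a change in the mix of cells, such as fewer cells in one state, cannot be told apart.

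Quizartinib in RPMI was compared with vehicle in RPMI to ask how subunit transcripts respond to FLT3 inhibition without stromal factors. Of the 77 nuclear subunit genes, 52 fell and 8 rose, with a median log2 fold change of -0.29, in the quasi-likelihood test of edgeR, adjusted by Benjamini-Hochberg over all 12998 genes at 0.05. Across all genes tested 79.2% were called, 39.4% lower and 39.8% higher, with a median of 0.02. Of the 13 mitochondrial mRNAs, 9 rose and 1 fell, with a median of 0.37. In hBMSC-CM, quizartinib against vehicle gave 44 nuclear genes lower and 9 higher, with a median of -0.18, while 67.1% of all genes were called, 33.6% lower and 33.5% higher, with a median of 0.01. Of all calls there 50.0% were higher, and with scaling by library size alone 62.7% were. All 13 mitochondrial mRNAs rose there, with a median of 0.74, which was 1.01 without replicate 1 of both hBMSC-CM groups.

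Quizartinib in RPMI lowered 25 of 38 nuclear genes of complex I (6 rose), 2 of 4 of complex II (1 rose), 7 of 9 of complex III (1 rose), 6 of 9 of complex IV and 12 of 17 of complex V. The median log2 fold change was -0.29 for complex I, -0.10 for complex II, -0.41 for complex III, -0.36 for complex IV and -0.29 for complex V. In hBMSC-CM the same medians were -0.16, -0.12, -0.22, -0.20 and -0.14. With upper-quartile scaling, which shifts the median of all genes in RPMI by 0.106, the complex II median in RPMI was 0.01, so its sign depends on the scaling, and 13 nuclear members rather than 8 were called higher. The differences between complexes were not tested.

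**Figure D2:**
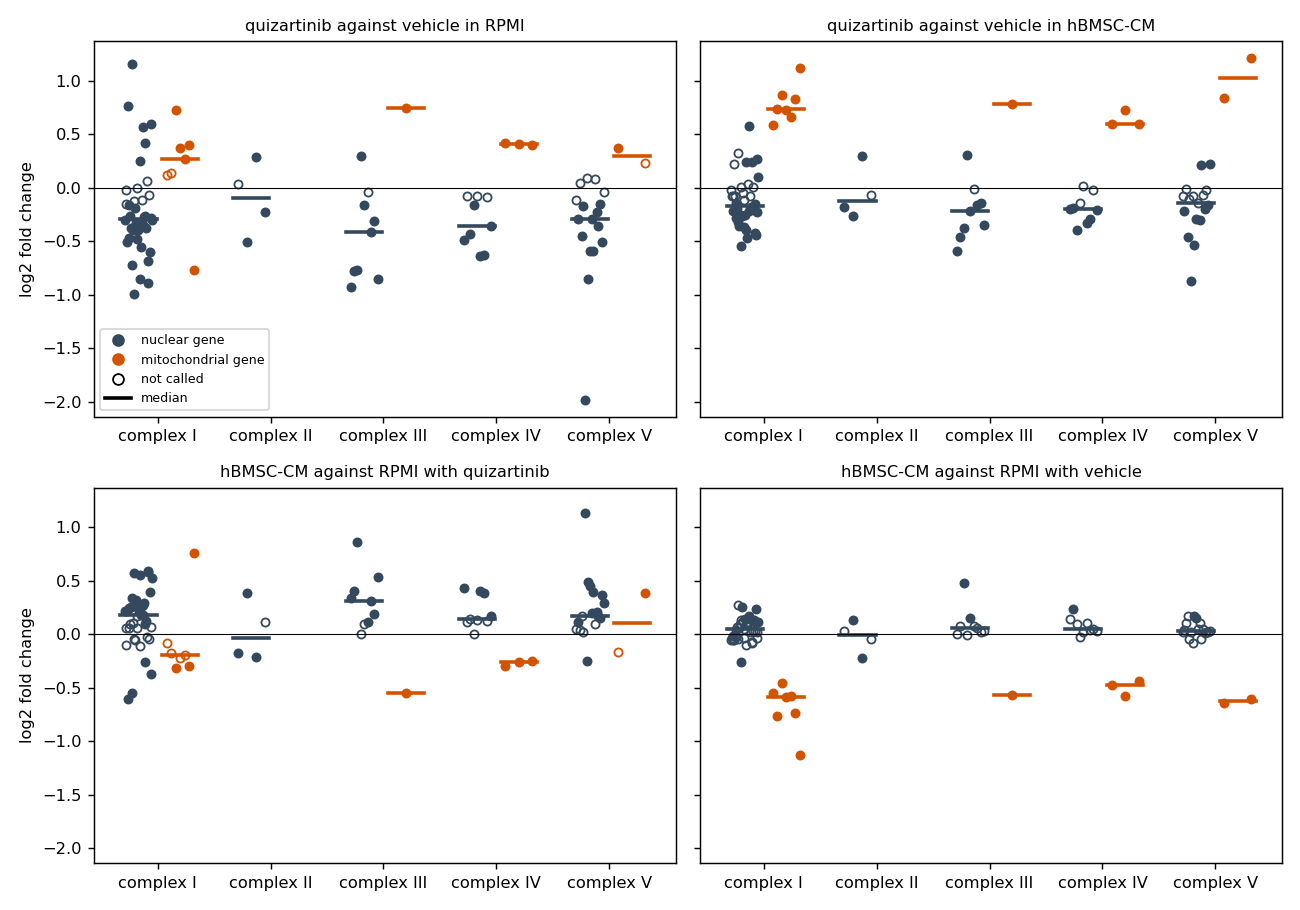
Log2 fold change of each tested subunit gene (points) by complex, in 4 comparisons. Dark points are nuclear genes, orange points mitochondrial genes, open points were not called at an adjusted p of 0.05, and bars are medians. Under quizartinib the nuclear medians lie below 0 and the mitochondrial medians above it, and with vehicle all 13 mitochondrial genes lie below 0 in hBMSC-CM against RPMI.

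The 2 drug comparisons share no library, so their calls can be set against each other. Of the 52 nuclear genes that fell in RPMI, 40 also fell in hBMSC-CM, which is 76.9% of the first list and 90.9% of the 44 in the second. Over all genes tested the same shares were 76.5% and 89.9%, so the members' overlap was near the background. The 4 that were called lower in hBMSC-CM alone were COX5B, NDUFA9, NDUFS7 and SDHA. The size of the log2 change was smaller in hBMSC-CM for 50 of the 52 (96.2%), and for 90.1% of all genes called lower in RPMI, in lists that were chosen on the RPMI change. The interaction term tests the difference itself (the change in hBMSC-CM minus the change in RPMI), and it was called above 0 for 25 of the 77 nuclear genes and below 0 for 3, with a median of 0.13, beside 26.4% and 18.8% of all genes (45.2% either way) and a median of 0.02. For the mitochondrial mRNAs it was above 0 for 8 of 13. That count was 4 without replicate 2 of vehicle in RPMI, 5 without replicate 3 of vehicle in RPMI, replicate 3 of quizartinib in RPMI, replicates 2 or 3 of vehicle in hBMSC-CM or replicate 2 of quizartinib in hBMSC-CM, and 13 without replicate 1 of both hBMSC-CM groups. The count of 3 nuclear genes below 0 was 1 without replicate 3 of vehicle in RPMI or without replicate 1 of vehicle in hBMSC-CM.

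**Figure D3:**
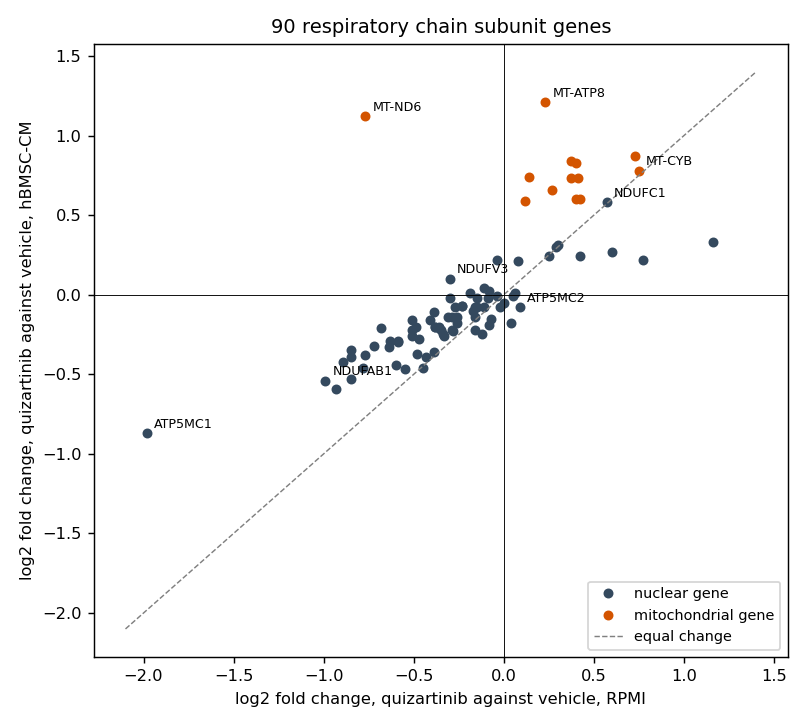
Log2 fold change under quizartinib in RPMI (x axis) and in hBMSC-CM (y axis) for the 90 tested subunit genes. The dashed line marks equal change. Most nuclear genes that fell lie above the line, ATP5MC1 at -1.98 and -0.87 is the farthest to the left, and MT-ND6 is the only mitochondrial mRNA below 0 in RPMI.

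Complex V held the nuclear member with the largest change under quizartinib in RPMI, ATP5MC1. ATP5MC1, ATP5MC2 and ATP5MC3 are separate genes whose precursors differ in the import peptide and give the same mature protein, the c subunit, which forms the proton-driven rotor ring. ATP5MC1 was at 77.6, 71.9 and 71.0 CPM with vehicle in RPMI and at 17.4, 18.9 and 19.9 CPM with quizartinib. In hBMSC-CM it was at 75.3, 71.6 and 77.5 CPM with vehicle and at 43.5, 38.9 and 39.9 CPM with quizartinib. The vehicle groups overlapped, while both quizartinib groups lay below them and apart from each other. The log2 fold change of ATP5MC1 was -1.98 in RPMI (SE 0.0616, adjusted p = 1.66e-17, edgeR) and -0.87 in hBMSC-CM (SE 0.0569, adjusted p = 2.12e-11, edgeR), with an interaction of 1.10 (SE 0.0841, adjusted p = 6.36e-10, edgeR).

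ATP5MC2, the most abundant of the 3 per base of transcript, was at 240, 228 and 235 CPM with vehicle and at 242, 244 and 263 CPM with quizartinib in RPMI, and its change of 0.09 (log2) was not called (adjusted p = 0.0872, edgeR) although the groups did not overlap. In hBMSC-CM it was at 228, 219 and 220 CPM with vehicle and at 222, 197 and 211 CPM with quizartinib, and the groups overlapped. ATP5MC3 fell by 0.85 in RPMI (SE 0.0518, adjusted p = 1.57e-12, edgeR), from 177, 167 and 165 CPM to 90.3, 93.9 and 97.4 CPM, and by 0.53 in hBMSC-CM. The summed level of the 3 genes was 467 to 494 CPM with vehicle and 350 to 380 CPM with quizartinib in RPMI, and 478 to 502 CPM and 360 to 403 CPM in hBMSC-CM. Per base of transcript, ATP5MC2 gave 66.9% to 68.2% of the 3 genes' level with vehicle in RPMI and 85.5% to 86.1% with quizartinib in RPMI. In hBMSC-CM its share was 63.6% to 66.0% with vehicle and 74.2% to 74.6% with quizartinib. These shares use 1 annotated transcript length per gene: 646 bases for ATP5MC1, 632 for ATP5MC2 and 2587 for ATP5MC3.

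**Figure D4:**
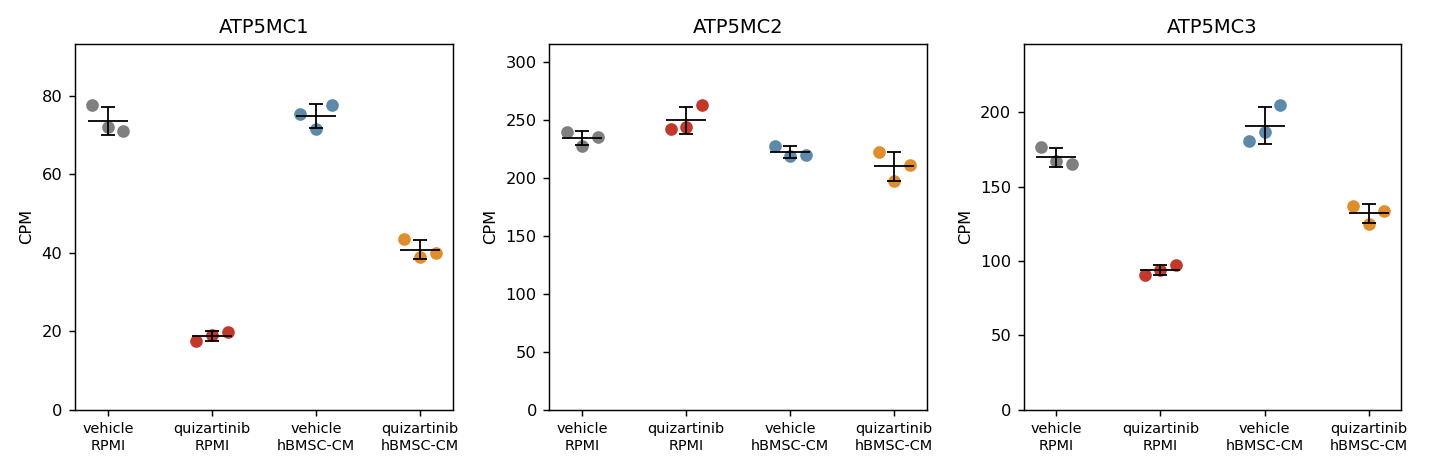
CPM of the 3 genes for the c subunit of ATP synthase in each library (points), with group mean and SD (bars, n = 3). ATP5MC1 and ATP5MC3 are lower in every quizartinib library than in every vehicle library, and ATP5MC2 lies between 197 and 263 CPM.

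Because these genes give 1 protein from separate promoters, the start regions of ATP5MC1 and ATP5MC2 are shown, with those of 2 members of other complexes that fell in both media, UQCR11 and SDHB. Each runs 5′ to 3′ from 250 bases before to 50 after the transcription start (RefSeq, GRCh38.p14): ATP5MC1 at chr17:48892537-48892836 on the plus strand, ATP5MC2 at chr12:53676034-53676333, UQCR11 at chr19:1605413-1605712 and SDHB at chr1:17053983-17054282, these 3 on the minus strand. Capitals mark matches, on either strand, to 5 motifs: the E-box CACGTG, the ETS core CCGGAAG, the cyclic AMP response element TGACGTCA, an NRF1 core of 10 letters and a YY1 core of 11 letters.
ATP5MC1: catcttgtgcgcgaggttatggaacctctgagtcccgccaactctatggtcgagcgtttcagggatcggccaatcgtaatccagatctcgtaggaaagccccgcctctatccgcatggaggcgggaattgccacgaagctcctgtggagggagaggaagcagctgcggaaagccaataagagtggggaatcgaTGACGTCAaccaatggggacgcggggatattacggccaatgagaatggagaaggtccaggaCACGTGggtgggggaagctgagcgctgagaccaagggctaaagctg
ATP5MC2: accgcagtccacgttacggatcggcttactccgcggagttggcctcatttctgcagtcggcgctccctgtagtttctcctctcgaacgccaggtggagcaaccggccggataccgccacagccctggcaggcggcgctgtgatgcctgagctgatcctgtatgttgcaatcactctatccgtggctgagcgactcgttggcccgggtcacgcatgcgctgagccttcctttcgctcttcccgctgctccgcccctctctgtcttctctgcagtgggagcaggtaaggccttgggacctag
UQCR11: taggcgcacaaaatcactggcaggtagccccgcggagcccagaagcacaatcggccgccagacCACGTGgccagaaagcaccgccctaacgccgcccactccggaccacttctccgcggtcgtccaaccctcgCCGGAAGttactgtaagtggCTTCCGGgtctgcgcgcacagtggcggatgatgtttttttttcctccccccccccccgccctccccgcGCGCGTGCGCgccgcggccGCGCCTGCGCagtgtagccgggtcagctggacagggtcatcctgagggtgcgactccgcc
SDHB: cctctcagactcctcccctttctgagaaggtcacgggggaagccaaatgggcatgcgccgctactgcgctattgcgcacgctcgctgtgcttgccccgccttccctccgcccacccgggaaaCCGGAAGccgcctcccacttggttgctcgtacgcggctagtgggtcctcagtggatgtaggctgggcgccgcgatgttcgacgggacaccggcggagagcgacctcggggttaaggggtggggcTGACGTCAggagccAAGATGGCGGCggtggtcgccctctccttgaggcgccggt

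The ATP5MC1 window held 1 E-box and 1 cyclic AMP response element, and the ATP5MC2 window held none of the 5 motifs. No rule picked UQCR11 and SDHB for display, and their windows need not be typical. NDUFAB1, NDUFS6 and COX7A2, which also fell in both media, had none of the 5 motifs. RefSeq promoter sequences were matched for 67 of the 83 nuclear genes. For each gene 1 entry was read, and 12 further entries of the matched genes were left out, so other start sites were not searched. Among the 16 without an entry were ATP5F1B, ATP5F1D, ATP5MC3, ATP5MF, ATP5MGL, COX6C, COX7A1, CYC1, NDUFA4, NDUFB5, NDUFB9, NDUFC2, NDUFS5, SDHC and UQCRB. The ETS core was found in 19 of the 67, against 10.7% of all 27305 promoters and 20.7% of those of tested genes, and it was in 16 of the 43 matched members that fell in RPMI and in 3 of the 20 that were tested and did not fall. The NRF1 core was in 17 of the 67 (6.28% of all promoters, 12.6% of those of tested genes), with 11 of the 43 and 5 of the 20. The E-box was in 7 of the 67 (7.43% of all promoters, 10.7% of those of tested genes, 10.4% of the members), with 4 of the 43 and 3 of the 20. The cyclic AMP response element was in 5 of the 67 (3.29% of promoters of tested genes), with 4 of the 43 and 1 of the 20. The YY1 core was in 4 of the 67 (2.26% of promoters of tested genes), with 2 of the 43 and 2 of the 20. The same split by fall was not made over all tested genes, so it has no background here. A match is a description of these letters and not evidence of a bound factor.

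The other complex V genes moved less. The catalytic F1 subunits ATP5F1A and ATP5F1B were the most abundant nuclear members by CPM. ATP5F1B, the catalytic beta subunit, fell by 0.29 in RPMI, from 799, 738 and 751 CPM to 618, 612 and 636 CPM, whereas ATP5F1A was at 785, 789 and 759 CPM with vehicle and at 721, 703 and 746 CPM with quizartinib and was not called (log2 fold change -0.11). In the peripheral stalk, which holds the F1 head still, 3 of 4 genes fell in RPMI. The exception, ATP5PO, was at 38.7, 39.5 and 40.7 CPM with vehicle and at 35.6, 38.0 and 41.8 CPM with quizartinib in RPMI. It rose in hBMSC-CM by 0.22 (SE 0.0667, adjusted p = 0.00741, edgeR), with an interaction of 0.26 (adjusted p = 0.03, edgeR), but its hBMSC-CM groups overlapped.

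In complex I, the largest falls were in small supernumerary subunits. Of the 31 supernumerary genes tested, 21 fell and 4 rose in RPMI, and of the 7 nuclear genes of the catalytic core, 4 fell and 2 rose. NDUFAB1 is the mitochondrial acyl carrier protein, which sits in complex I and also serves fatty acid and lipoate synthesis. It was at 50.0, 54.3 and 54.5 CPM with vehicle and at 26.3, 25.6 and 28.2 CPM with quizartinib in RPMI, and at 54.4, 57.4 and 61.5 CPM and 38.5, 42.0 and 38.4 CPM in hBMSC-CM. Each quizartinib group lay below both vehicle groups, and the RPMI one was the lowest. The log2 fold changes were -0.99 in RPMI (SE 0.0614, adjusted p = 2.31e-12, edgeR) and -0.54 in hBMSC-CM, with an interaction of 0.45 (adjusted p = 0.000204, edgeR).

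The accessory subunits NDUFS6 and NDUFS5 also had their lowest levels with quizartinib in RPMI. NDUFS6 was at 76.4, 76.4 and 76.1 CPM with vehicle and at 39.2, 39.6 and 45.0 CPM with quizartinib in RPMI, and at 82.6, 83.8 and 80.5 CPM and 59.2, 64.2 and 61.9 CPM in hBMSC-CM. Its interaction was 0.48 (SE 0.0723, adjusted p = 1.47e-05, edgeR), and that of NDUFS5 was 0.47 (SE 0.0677, adjusted p = 8.53e-06, edgeR). NDUFV3, an accessory subunit of the NADH-binding module, changed direction between media: it fell by 0.30 in RPMI and rose by 0.10 in hBMSC-CM (adjusted p = 0.0363, edgeR), with an interaction of 0.41 (adjusted p = 1.34e-05, edgeR). It was at 63.7, 64.5 and 64.0 CPM and 52.1, 50.0 and 54.1 CPM in RPMI, and at 68.9, 69.0 and 70.2 CPM and 74.1, 73.6 and 76.0 CPM in hBMSC-CM.

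Against this direction, NDUFC1, a small membrane subunit, rose in both media. NDUFC1 rose by 0.57 in RPMI, from 26.7, 27.1 and 25.8 CPM to 38.2, 39.2 and 41.2 CPM, and by 0.58 in hBMSC-CM, with an interaction of 0.01 whose 95% interval ran from -0.14 to 0.16. NDUFC1 shares 31.5% of its exon bases with the neighbouring genes NAA15 and MGARP over both strands.

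Some of the other complex I genes called higher in RPMI are uncertain, since STAR's gene count drops reads that overlap more than 1 gene. NDUFA7 (312 counts over the 12 libraries), NDUFA13 (900 counts) and NDUFV2 (2091 counts) share 32.5%, 21% and 28.4% of their exon bases with another annotated gene on the same strand. Their log2 fold changes were 1.16, 0.77 and 0.60. Per kilobase of transcript their levels were 1.81, 5.73 and 8.22 CPM, against 66.5 CPM for NDUFAB1. Among the 15 tested nuclear members with at least 20% of exon bases shared, 4 rose and 7 fell in RPMI, and among the other 62, 4 rose and 45 fell, a split made after the values were seen.

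Complex II has no mitochondrially encoded subunit, and its 4 genes split. SDHB, the iron-sulfur subunit, was at 142, 139 and 138 CPM with vehicle and at 99.0, 95.2 and 101 CPM with quizartinib in RPMI, a fall of 0.51 (SE 0.0473, adjusted p = 2.14e-09, edgeR). SDHC, a membrane anchor that carries the heme with SDHD, rose by 0.29 in RPMI (SE 0.0722, adjusted p = 0.000991, edgeR), from 51.4, 44.7 and 54.0 CPM to 63.6, 61.3 and 58.1 CPM. The groups did not overlap for either gene. In hBMSC-CM the changes were -0.26 for SDHB and 0.30 for SDHC. The flavoprotein SDHA was not called in RPMI (0.04), and SDHD fell by 0.23.

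In complex III, CYC1, the heme-bearing cytochrome c1, was at 301, 274 and 290 CPM with vehicle and at 142, 154 and 158 CPM with quizartinib in RPMI, and at 274, 284 and 308 CPM and 212, 172 and 191 CPM in hBMSC-CM. It fell by 0.93 in RPMI (SE 0.0632, adjusted p = 1.14e-11, edgeR) and by 0.59 in hBMSC-CM, with an interaction of 0.34 (adjusted p = 0.00327, edgeR). The small subunit UQCRQ fell by 0.85 in RPMI, from 56.9, 57.6 and 57.3 CPM to 33.7, 29.4 and 32.7 CPM, and by 0.35 in hBMSC-CM, with an interaction of 0.50 (SE 0.0776, adjusted p = 2.1e-05, edgeR). Another small subunit, UQCRB, went the other way. It was at 244, 252 and 240 CPM with vehicle and at 306, 303 and 300 CPM with quizartinib in RPMI, with rises of 0.30 in RPMI and 0.31 in hBMSC-CM, and an interaction of 0.01 with a 95% interval from -0.11 to 0.12. The core proteins UQCRC1 and UQCRC2 moved little, at -0.16 (called lower, groups overlapping) and -0.04 (not called) in RPMI.

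Complex IV had no nuclear gene that rose under quizartinib in either medium. COX7A2 was at 207, 200 and 197 CPM with vehicle and at 129, 126 and 133 CPM with quizartinib in RPMI, and at 205, 215 and 227 CPM and 178, 170 and 165 CPM in hBMSC-CM. It fell by 0.64 in RPMI (SE 0.0453, adjusted p = 2.44e-11, edgeR) and by 0.33 in hBMSC-CM. COX7B fell by 0.63 in RPMI and by 0.29 in hBMSC-CM, with an interaction of 0.33 (adjusted p = 0.000472, edgeR). COX5A fell by 0.49 and by 0.20 (interaction 0.30, adjusted p = 0.00348, edgeR). COX5B, COX6C and COX7C were not called in RPMI, at -0.08, -0.08 and -0.09. In the paralog pairs, the common forms COX6A1, COX6B1, COX7A2, COX7B and COX8A were detected, while the tissue-restricted COX6A2, COX6B2, COX7A1, COX7B2 and COX8C lay below the filter in these cells. NDUFA4, which is counted with complex I by its name and is now placed with complex IV, fell by 0.26 in RPMI and by 0.14 in hBMSC-CM, where its groups overlapped.

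In RPMI the changes of the 13 mitochondrial mRNAs ran from -0.77 to 0.75, with 1 below 0. The differences between these mRNAs were not tested. Quizartinib in RPMI raised MT-CYB, the cytochrome b of complex III, by 0.75 (SE 0.128, adjusted p = 1.59e-05, edgeR), from 81.2, 93.6 and 98.1 CPM to 159, 154 and 146 CPM. MT-ND3, a small core subunit of complex I, rose by 0.73 (SE 0.106, adjusted p = 2.13e-06, edgeR), from 98.2, 97.6 and 97.7 CPM to 161, 163 and 161 CPM. The abundant MT-CO1 rose by 0.42 (SE 0.0969, adjusted p = 0.000505, edgeR), from 2620, 2820 and 3110 CPM to 4000, 3700 and 3710 CPM, and MT-CO2 and MT-CO3 by 0.41 and 0.40. MT-ND1, MT-ND2 and MT-ATP8 were not called, at 0.12, 0.14 and 0.23. In each, the RPMI groups overlapped.

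In hBMSC-CM, all 13 rises lay between 0.59 and 1.21, and no vehicle library reached a quizartinib library for any of them, beside 34.0% of all genes with every treated library higher. Without replicate 1 of both hBMSC-CM groups, the rises lay between 0.85 and 1.69. MT-CO1 went from 2400, 1820 and 1910 CPM to 2550, 3380 and 3360 CPM, a rise of 0.60 (SE 0.0971, adjusted p = 1.51e-05, edgeR), or 0.85 without the first replicates. The interaction was called for MT-ND6, MT-ATP8, MT-ND2, MT-ATP6, MT-ND1, MT-ND5, MT-ND4L and MT-ND4, and not for MT-CYB (0.02, 95% interval -0.34 to 0.39), MT-ND3 (0.14) or the 3 MT-CO genes (0.18 to 0.32). Without the first replicates it was called for all 13 and was 0.43 for MT-CYB (adjusted p = 0.00072, edgeR). With DESeq2's Wald test 4 of the 8 were called.

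MT-ND6 stood apart from the other 12. It is the only one of the 13 mRNAs read from the light strand of the mitochondrial genome, and its transcript is known to lack the poly-A tail of the others, while these libraries were made from poly-A-selected RNA. It was at 11.8, 20.8 and 16.4 CPM with vehicle and at 9.73, 8.77 and 10.2 CPM with quizartinib in RPMI, and at 8.28, 5.19 and 8.50 CPM and 20.3, 10.6 and 17.2 CPM in hBMSC-CM. The groups did not overlap within either medium, and the order was opposite. It fell by 0.77 in RPMI (SE 0.199, adjusted p = 0.0014, edgeR) and rose by 1.12 in hBMSC-CM (SE 0.21, adjusted p = 7.91e-05, edgeR), with an interaction of 1.89 (SE 0.29, adjusted p = 1.62e-05, edgeR) that lay between 1.65 and 2.11 under the 23 other settings. MT-ATP8, which shares 22.2% of its bases with MT-ATP6, had the next largest interaction, 0.98 (SE 0.225, adjusted p = 0.00122, edgeR). The part of poly-A selection and of the strand setting of the counting, which is not given in the sources used here, was not tested.

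**Figure D5:**
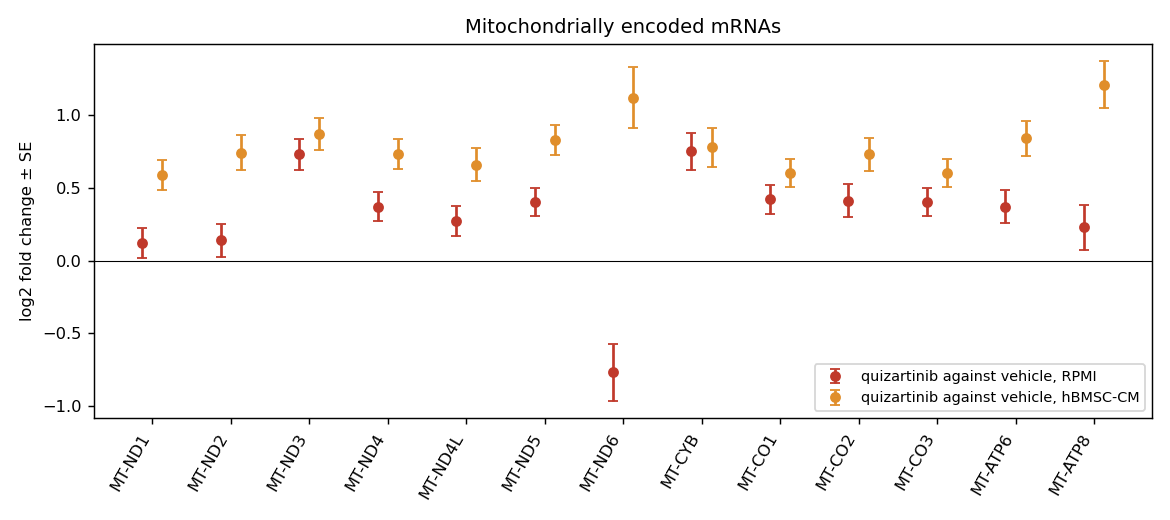
Log2 fold change under quizartinib of each mitochondrially encoded mRNA in RPMI (red) and in hBMSC-CM (orange), with standard errors. All 13 are above 0 in hBMSC-CM, and MT-ND6 is at -0.77 in RPMI.

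The 2 mitochondrial rRNAs varied between replicates beyond the mRNAs. MT-RNR1 and MT-RNR2 together were at 211, 89 and 218 CPM with vehicle and at 478, 421 and 384 CPM with quizartinib in RPMI, and at 185, 161 and 30.5 CPM and 66.6, 345 and 276 CPM in hBMSC-CM. They rose in RPMI (1.10 and 1.35) and were not called in hBMSC-CM (0.66 and 0.88), where the groups overlapped. Of the 394 nuclear copies of mitochondrial genes in the table, 5 passed the filter, and 4 rose in RPMI and all 5 in hBMSC-CM, with medians of 0.51 and 0.68. Reads of such near-identical copies can be hard to tell from those of the mitochondrial genes, so the counts of the copies are uncertain.

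The media were compared with quizartinib to ask how far hBMSC-CM changes the treated state. Of the 77 nuclear genes, 43 were higher in hBMSC-CM and 7 lower, with a median log2 difference of 0.17, beside 35.9% and 33.9% of all genes (69.8% either way) and a median of 0.01. ATP5MC1 was higher by 1.13 (SE 0.064, adjusted p = 1.2e-12, edgeR), UQCR11 by 0.86, NDUFS5 by 0.59, COX5A by 0.43 and SDHB by 0.38. The log2 difference was -0.25 for ATP5MC2, which was called lower. Of the 13 mitochondrial mRNAs, 6 were lower and 2 (MT-ND6 and MT-ATP8) higher, with a median of -0.22. The 6 lower calls became 1 (MT-CYB) without replicate 1 of quizartinib in hBMSC-CM and 3 without replicate 1 of quizartinib in RPMI. The 2 higher calls became 1 without replicates 2 or 3 of quizartinib in RPMI or replicates 2 or 3 of quizartinib in hBMSC-CM. In the fit without replicate 1 of both hBMSC-CM groups, 6 were lower and 2 higher, with a median of -0.13.

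With vehicle, the medium separated the genomes more clearly. All 13 mitochondrial mRNAs were called lower in hBMSC-CM, by -0.44 to -1.13 with a median of -0.58, beside 15.5% of all genes called lower. The groups did not overlap for any of the 13, and 22.3% of all genes had every hBMSC-CM library lower. Without replicate 1 of both hBMSC-CM groups the differences were -0.57 to -1.24, with a median of -0.79. The nuclear median was 0.04, with 13 of 77 genes higher and 2 lower (NDUFB1 at -0.26 and SDHC at -0.22), beside 16.6% of all genes called higher and 32.1% called either way. UQCR11 had the largest nuclear difference, 0.48 (SE 0.0774, adjusted p = 7.67e-05, edgeR), at 14.7, 13.5 and 14.5 CPM in RPMI and 20.4, 18.0 and 20.9 CPM in hBMSC-CM. The 13 higher calls became 7 without replicate 1 or 2 of vehicle in RPMI, 4 without its replicate 3, and 7 or 3 without replicate 2 or 3 of vehicle in hBMSC-CM. The 2 lower calls became 1 without replicates 1 or 3 of vehicle in RPMI or replicates 2 or 3 of vehicle in hBMSC-CM.

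Genes that build and supply the chain were read from lists, to be set beside 39.4% of all genes called lower and 39.8% called higher in the RPMI drug comparison. In the hBMSC-CM one these shares were 33.6% and 33.5%. Of 50 assembly factors tested, 32 fell and 8 rose in RPMI, with a median of -0.37, and 27 fell and 7 rose in hBMSC-CM, with a median of -0.17. NDUFAF4, a complex I assembly factor, fell by 1.87 in RPMI and by 0.79 in hBMSC-CM, and UQCC2, needed for complex III, by 1.42 and 0.56, while SURF1, needed for complex IV, rose by 0.83 and 0.58. Among 16 genes that copy and transcribe mitochondrial DNA, 8 fell (50.0%, beside 39.4% of all genes) and 3 rose in RPMI, with a median of -0.32. The helicase TWNK fell by 2.41, the packaging factor TFAM by 1.30 and the mitochondrial RNA polymerase POLRMT by 0.89, in the libraries where the mitochondrial mRNA sum was higher. In hBMSC-CM they fell by 0.46, 0.52 and 0.40.

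Of 25 genes for mitochondrial RNA processing, stability and decay, 21 fell (84.0%, beside 39.4% of all genes) and 2 rose in RPMI, with a median of -0.57. These included the polynucleotide phosphorylase PNPT1, which degrades mitochondrial RNA, at -1.61, its helicase partner SUPV3L1 at -1.04, and SLIRP, a partner of the mRNA stabiliser LRPPRC, at -1.53. LRPPRC itself fell by 0.16. With quizartinib, 19 of the 25 were called higher in hBMSC-CM (76.0%, beside 35.9% of all genes) and 1 lower (33.9% of all genes), with a median of 0.54. Of 13 transcriptional regulators of respiratory genes, 7 fell (53.8%, beside 39.4% of all genes) and 5 rose in RPMI, with a median of -0.26. The coactivator PPRC1 was at -2.64 and MYC at -3.09, while NRF1 fell by 0.26. The ETS factor subunit GABPA rose by 0.11 and its partner GABPB1 fell by 0.67. Mean levels with vehicle and with quizartinib in RPMI were 29.3 and 59.0 CPM for TFEB, 112 and 148 CPM for CREB1, and 60.3 and 73.7 CPM for GABPB2. Those of MYC were 429 and 50.3 CPM in RPMI, and 786 and 594 CPM in hBMSC-CM.

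Of 23 electron carrier genes and neighbours of the chain, 12 fell (52.2%, beside 39.4% of all genes) and 4 rose in RPMI, with a median of -0.15. CYCS, cytochrome c, fell by 1.87 in RPMI and by 0.68 in hBMSC-CM, and PDSS1, which starts the ubiquinone side chain, by 1.98 and 0.71. Among the 8 tested subunits, paralogs and related genes that the name patterns do not take, 2 fell and 2 rose in RPMI. COX4I1 was not called in either medium, at -0.05 in both, and ATP5IF1, the inhibitor of ATP synthase reversal, rose by 0.38 in RPMI and by 0.27 in hBMSC-CM.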

How the data were processed

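RNA of 12 MOLM-13 samples was poly-A selected and sequenced as paired-end reads. The authors trimmed adapters, aligned to hg38 with Ensembl annotation and made gene counts with STAR 2.6.0a, and the deposited values are raw counts per gene name, in which IDs with the same name were summed. The strand setting is not given in the sources used here.

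Counts were fitted with edgeR 4.0.16 (quasi-likelihood test, trimmed mean of M-values scaling, 4 group means, 12 libraries, 8 residual degrees of freedom) in R 4.3.3. Genes needed a mean count and a mean CPM of at least 1, and p-values were adjusted by the Benjamini-Hochberg method over all 12998 genes, with a threshold of 0.05. The 5 comparisons were quizartinib against vehicle in each medium, the media with each treatment, and the interaction. The tests were tested on simulated data. Alternatives used DESeq2 1.42.0, limma 3.58.1 (voom), other scalings and filters, a replicate block and fits without single libraries.

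Exon overlap and transcript length came from GENCODE v44 on the same build, a later release than the counts used. Named were all mitochondrial mRNAs, the paralog groups, NDUFA4, NDUFAB1 and, per complex and comparison, the largest called rise and fall among nuclear members of at least 10 CPM. 1 gene that the rule names is not reported here. Other names were chosen after their values were seen. Members and lists were chosen with earlier results of these data known, so no list is independent support.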

Additional observations from a re-analysis of the deposited data

Results flagged for a closer look

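The effect of quizartinib differed between RPMI and hBMSC-CM, by the interaction term in edgeR's quasi-likelihood test, for these 22 genes named by rule. No explanation was weighed.

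Among mitochondrial mRNAs the difference (log2 change in hBMSC-CM minus that in RPMI) was 1.89 for MT-ND6, 0.98 for MT-ATP8, 0.59 for MT-ND2, 0.48 for MT-ATP6, 0.47 for MT-ND1, 0.44 for MT-ND5, 0.39 for MT-ND4L and 0.37 for MT-ND4. The call held in 8 of 23 other settings for MT-ND4L, in 10 for MT-ND4, in 15 for MT-ATP6, in 20 for MT-ND5 and in 21 for MT-ND1. MT-ND6 is the one in which the direction itself turned, with a called fall in RPMI and a called rise in hBMSC-CM.

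Among nuclear members it was 1.10 for ATP5MC1, 0.50 for UQCRQ, 0.48 for NDUFS6, 0.47 for NDUFS5, 0.45 for NDUFAB1, 0.38 for UQCR11, 0.34 for CYC1, 0.33 for COX7B, 0.32 for ATP5MC3, 0.30 for COX7A2, 0.30 for COX5A and 0.25 for SDHB, all with a smaller fall in hBMSC-CM. It was 0.26 for ATP5PO, which was not called in RPMI and rose in hBMSC-CM. It was -0.17 for ATP5MC2, not called in either medium. Over 23 other settings the call held in 13 for ATP5PO and 13 for ATP5MC2.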

How the results depend on the processing

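The headline counts of the drug comparisons kept their direction when each library was left out in turn. Nuclear members called lower under quizartinib were then 48 to 53 in RPMI and 39 to 47 in hBMSC-CM, and mitochondrial mRNAs called higher were 7 to 9 and 13. Scaling by library size alone moved the median of all genes by 0.092 in RPMI and 0.101 in hBMSC-CM, beside nuclear medians of -0.29 and -0.18. Upper-quartile scaling moved the median of all genes by 0.106 and 0.081. With upper-quartile scaling, 13 instead of 8 nuclear members were called higher in RPMI, the complex II median there was 0.01 instead of -0.10, and 1 instead of 2 mitochondrial mRNAs was called higher in hBMSC-CM with quizartinib. That count was 1 with DESeq2 and with an adjusted p under 0.01, and 1 to 2 over single left-out libraries. The 6 mitochondrial mRNAs called lower there were 2 with DESeq2, 3 under 0.01 and 1 to 9 over left-out libraries. The 7 nuclear members called lower there were 4 without a filter, 4 under 0.01 and 5 to 9 over left-out libraries. Between media with vehicle, all genes called went from 4171 to 2691 under 0.01. The 13 nuclear members called higher with vehicle were 8 with library size alone, 6 with upper-quartile scaling, 3 under 0.01 and 3 to 15 over left-out libraries, and the 2 called lower were 1 in a fit of the compared groups alone, 1 under 0.01 and 1 to 2 over left-out libraries. For the interaction, the 8 mitochondrial mRNAs called above 0 were 4 with DESeq2, 3 under 0.01 and 4 to 12 over left-out libraries. The 3 nuclear members called below 0 were 0 without a filter, 1 with filterByExpr, 0 under 0.01 and 1 to 4 over left-out libraries. In an alternative chosen after seeing the data, replicate 1 of both hBMSC-CM groups was left out: the interaction was called for 13 mitochondrial mRNAs, and the log2 ratio difference under quizartinib in hBMSC-CM was 1.12 instead of 0.80. The cause of these changes was not tested. Of 4522 values of named genes, 4274 stayed on their side of the threshold, 178 lost and 70 gained a call. The sign was opposite in 58, and in 0 of these was the reported value called.

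Replicate numbers did not pair the libraries: same-numbered libraries correlated at -0.23 to 0.10 over 18 pairs, and 0 of 12 libraries correlated best with their own number. With the replicate number as a block, 52 and 44 nuclear members were called lower under quizartinib in RPMI and hBMSC-CM, 9 and 13 mitochondrial mRNAs were called higher, 9 nuclear members were higher in hBMSC-CM with vehicle, and the interaction was called for 6 mitochondrial mRNAs.

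Depth was not the limit for most members, but a count of 0 allows up to 0.15 CPM, and 6 nuclear genes were too low to test. With 3 libraries per group of 1 cell line, 1 dose and 1 time, the values hold for these libraries. CPM are levels relative to the scaled total of a library, so a change in total RNA per cell would not be seen.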
